A study of Mus musculus with 18 samples.

Results

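The 10 genes Exosc1 to Exosc10, which encode the subunits of the RNA exosome, were taken by symbol from the 51467 genes of the count table, with no use of their values. The RNA exosome is the complex that degrades and trims RNA from the 3′ end in the nucleus and the cytoplasm of eukaryotic cells. Its core is a barrel: PH-like proteins (EXOSC4 to EXOSC9) form a ring, and proteins with S1 and KH RNA-binding domains (EXOSC1, EXOSC2 and EXOSC3) form a cap on it through which RNA is threaded. In mammals the barrel itself has no catalytic activity, which is supplied by the nucleases DIS3, DIS3L and EXOSC10. Helper complexes feed it with RNA, the SKI complex in the cytoplasm and MTREX-containing complexes in the nucleus.

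The cells profiled were mouse embryonic stem cells (ESCs) of the V6.5 line, kept in serum and LIF with the 2i inhibitors. They were wild type (WT) or lacked a working Ddx6 gene (Ddx6 KO), which encodes an RNA helicase with roles in the repression of translation and in the decay of mRNA. The Ddx6 KO cells were 2 clones made with Cas9: clone 1 supplied KO gradient 1, while clone 2 supplied KO gradients 2 and 3, so clone and gradient cannot be told apart for clone 1. All cells of both genotypes were treated with cycloheximide before lysis, and each sucrose gradient gave a monosome fraction, a low polysome fraction (2 to 4 ribosomes) and a high polysome fraction (4 or more). With 3 gradients per genotype this made 18 libraries in 6 groups of 3. The 3 gradients of a genotype are the replicates; nothing in the labels says that the WT gradients came from separate cultures, so p-values measure the spread between these gradients, which may be technical. No unfractionated RNA was used here, so every value is a level within a fraction relative to the other mRNAs of that fraction.

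Libraries held between 2543617 and 11474550 counts in genes; the 3 WT monosome libraries were the shallowest, at no more than 4894677 counts, against at least 7043953 in each of the others. Levels are given as counts-per-million values (CPM) scaled by TMM factors. One read marks the 3′ end of one transcript in these libraries, and no division by transcript length was made. In the Ddx6 KO libraries Ddx6 itself stood at 17.5 to 57.3 CPM (monosome), 17.6 to 82.4 CPM (low polysome) and 9.64 to 55.1 CPM (high polysome), against 143 to 212 CPM over all WT libraries. The highest KO value of each fraction was that of gradient 1 (clone 1). Counts per gene do not show the edited site, and the study's western blot found no DDX6 protein in either clone. The 8 ESC markers summed to 2290 to 5520 CPM in WT and 2420 to 4100 CPM in KO libraries. The 4 primed markers summed to 103 to 148 CPM in WT and 32.6 to 80.1 CPM in KO libraries, with Fgf5 at 0 in all 18. The part of this difference in the results was not tested. The 8 germ layer markers summed to 30.1 to 51.7 CPM in WT and 28.2 to 75.9 CPM in KO libraries, mostly from Sox1. The 4 fibroblast markers summed to at most 10.9 CPM. The 3 libraries WT low polysome 3, KO low polysome 2 and KO high polysome 3, deviated from their groups in a shared direction (Pearson r of their deviations 0.442 to 0.562 across genes), with 180, 113 and 60 genes more than 1 log2 unit from the group mean; WT monosome 1, the shallowest library, had 115 such genes without that shared direction; where leaving them out changed the call of a subunit, the value without them is given.

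Of the 10 genes, 9 passed the filter on low counts (at least 3 CPM in at least 3 libraries), with between 51 and 4131 counts per library. The tenth, Exosc6, had 0 counts in all 18 libraries, out of 141899331 in all. Exosc6 is a single-exon gene (chr8:111056339-111057664, plus strand, GRCm38), and all 1326 of its exonic bases lie inside the last exon of Aars, the alanyl-tRNA synthetase gene, on the same strand of the counted annotation. Reads there could not be given to 1 gene, so the 0 sets no limit on the level of Exosc6 and it is left out below. No other subunit gene shared exonic bases with a gene on its strand.

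The subunit mRNAs were not equally abundant, and their order differed between fractions. In the WT monosome, Exosc5, a ring subunit, was highest at 239 ± 21.3 CPM (SD, n = 3), followed by Exosc8 at 139 ± 7.83. Next came Exosc1 at 70.8 ± 8.74 and Exosc9 at 69.7 ± 4.5, whose libraries overlapped. Exosc2 at 57.1 ± 3.20, Exosc7 at 55.0 ± 5.78 and Exosc10 at 49.4 ± 4.94 each overlapped their neighbour in that order, and Exosc4 at 38.3 ± 6.77 and Exosc3 at 17.8 ± 2.38 stood below them without overlap. In the WT high polysome Exosc5 (293 ± 48.9 CPM) was still highest and Exosc3 (32.0 ± 5.09 CPM) lowest, but Exosc7 had moved to 176 ± 18.2, overlapping Exosc8 at 185 ± 24.3, and Exosc1 at 57.4 ± 6.88 overlapped Exosc10 at 48.0 ± 6.26.

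**Figure D1:**
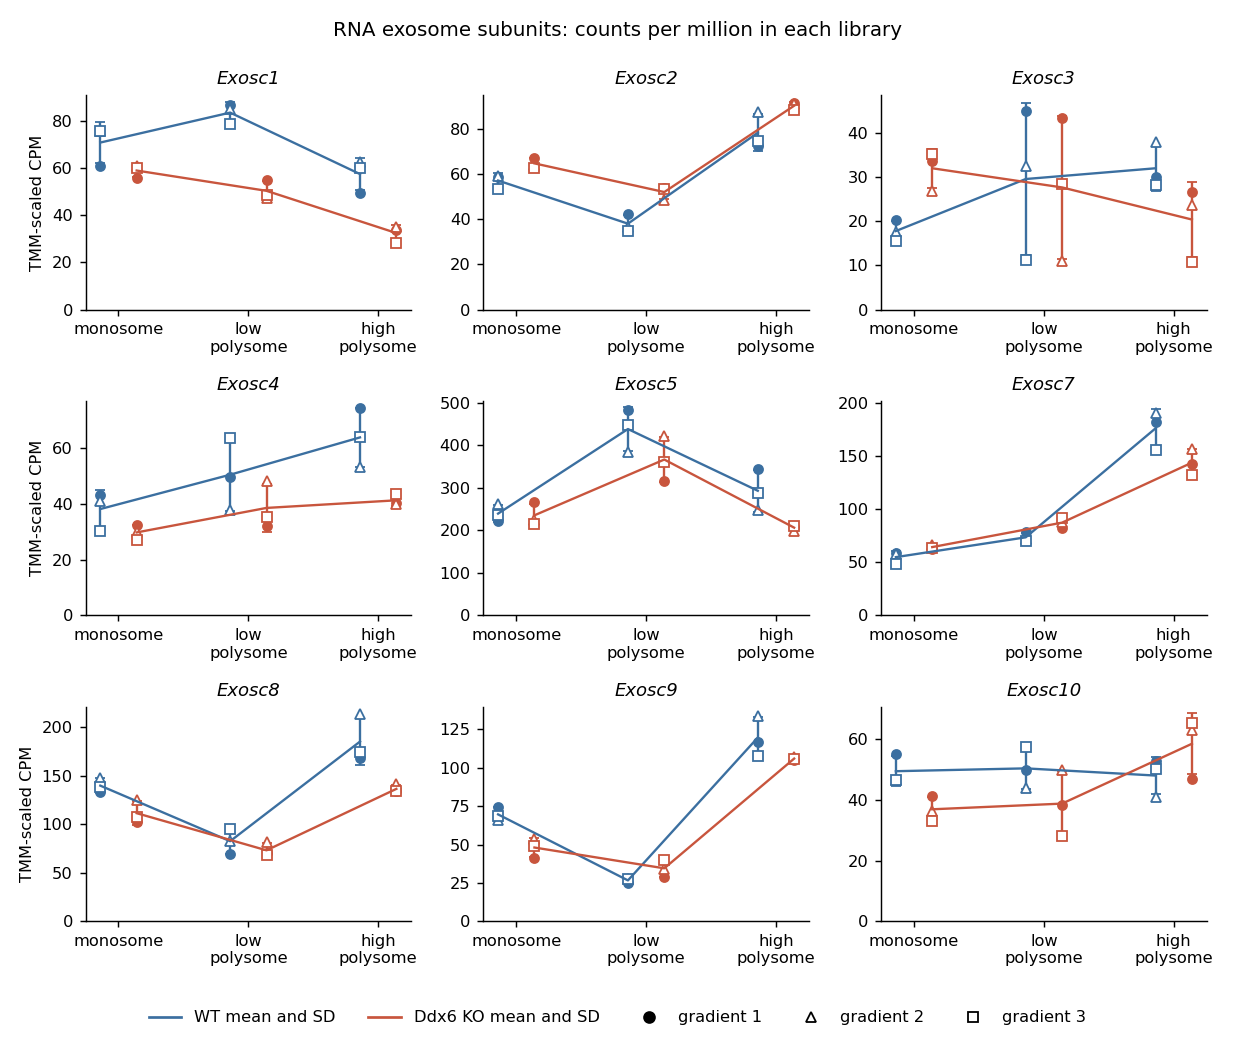
TMM-scaled CPM (vertical axes, each starting at 0) of the 9 measured exosome subunit genes by fraction, in WT (blue) and Ddx6 KO (red) ESCs; symbols are single gradients, lines join group means and bars are SD (n = 3). Exosc2, Exosc8 and Exosc9 dip in the WT low polysome, Exosc5 peaks there (438 CPM), and Exosc7 rises to 176 CPM in the WT high polysome.

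The first comparison asked how the subunit mRNAs were spread between heavily translated and monosome-bound RNA in WT cells. The ratio of high polysome to monosome, called the translation level, was higher than 0 for 5 of the 9 tested subunits and lower for 1 (limma adjusted p under 0.05); among all 12705 genes tested, 28.9% were higher and 32.2% lower. The median over the 9 subunits was a log2 ratio of 0.45, against −0.02 over all genes. In Ddx6 KO cells 6 subunits were higher and 1 lower, with a median of 0.47 against 0.03; here 35.0% of all genes were higher and 33.6% lower. Without the 3 libraries that deviated together the subunits called higher were 7 in WT and 4 in KO.

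Among the cap genes, Exosc2 was skewed to the high polysome in both genotypes, with no difference called between them. It stood at 58.7, 59.2 and 53.5 CPM in the WT monosome and 72.5, 87.7 and 74.7 CPM in the WT high polysome, and at 67.2, 64.1 and 62.9 against 91.4, 91.1 and 88.3 CPM in KO cells. High polysome and monosome libraries did not overlap in either genotype, and the fitted log2 ratio was 0.45 ± 0.12 (SE) in WT (limma adjusted p = 0.00281) and 0.48 ± 0.11 in KO (adjusted p = 0.000708). The KO minus WT difference of these ratios, called the KO effect, was 0.03 ± 0.16 (adjusted p = 0.934), and it was −0.03 with DESeq2 size factors and −0.10 by library size alone.

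Exosc1, the smallest of the subunits with 588 coding bases (195 residues), was the subunit tilted away from the high polysome, and more so in KO cells. WT libraries gave 60.7, 75.9 and 75.8 CPM in the monosome and 49.6, 62.6 and 60.1 CPM in the high polysome, lower in each of the 3 gradients although the groups overlapped. KO libraries gave 55.8, 60.9 and 60.1 CPM against 33.7, 35.2 and 28.4 CPM, which did not overlap. The log2 ratio was −0.32 ± 0.13 in WT (limma adjusted p = 0.0446) and −0.87 ± 0.13 in KO (adjusted p = 7.29e-06). The WT call was lost by edgeR, without the 3 libraries that deviated together (−0.26, adjusted p = 0.0861) and under most other settings, while the KO call held without each gradient in turn.

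Exosc3, the third cap gene and the lowest of the 9 tested subunits in mean over the WT libraries (26.4 CPM), had no call in either genotype, and its libraries scattered. It stood at 20.2, 17.6 and 15.5 CPM in the WT monosome and 29.9, 37.8 and 28.2 CPM in the WT high polysome. In KO cells the order was the other way round, with 33.7, 26.9 and 35.3 CPM in the monosome and 26.7, 23.6 and 10.8 CPM in the high polysome, and in neither genotype did these fractions overlap. In the low polysome it ranged from 11.1 to 45.0 CPM in WT and from 11 to 43.4 CPM in KO cells. The lowest values of the KO high polysome (10.8 CPM) and of both low polysome groups belonged each to one of the 3 libraries that deviated together. The WT log2 ratio was 0.87 ± 0.50 (limma adjusted p = 0.141), and without those libraries it was 0.92 ± 0.22 (adjusted p = 0.000544).

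Of the ring genes, Exosc7 had the largest WT translation level of the 9. Its WT libraries held 58.7, 57.9 and 48.3 CPM in the monosome and 182, 191 and 156 CPM in the high polysome, a log2 ratio of 1.69 ± 0.13 or 3.23-fold (limma adjusted p = 5.16e-10). KO libraries held 62.8, 66.5 and 64.0 CPM against 143, 157 and 132 CPM, a log2 ratio of 1.15 ± 0.12 (adjusted p = 3.01e-08). The high polysome libraries of both genotypes lay far above their monosome libraries.

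Exosc9 and Exosc8 shared a different shape, with the low polysome below both other fractions. Exosc9 stood at 74.6, 65.7 and 68.7 CPM in the WT monosome, fell to 24.9, 27.3 and 27.9 CPM in the low polysome and stood at 117, 134 and 108 CPM in the high polysome. Exosc8 gave 133, 148 and 138 CPM, then 69.8, 82.3 and 95.5 CPM, then 168, 213 and 174 CPM. Neither gene's WT fractions overlapped, and in KO cells too the low polysome libraries of both lay below all libraries of the other fractions. Exosc2 had the same order, with 42.4, 36.7 and 35.0 CPM in the WT low polysome; all 3 WT low polysome libraries lay below all 3 WT monosome libraries for these 3 subunits, as for 27.4% of all genes tested. High polysome over monosome log2 ratios were 0.78 ± 0.14 for Exosc9 (limma adjusted p = 4.08e-05) and 0.40 ± 0.13 for Exosc8 (adjusted p = 0.0127) in WT. In KO they were 1.15 ± 0.13 for Exosc9 (adjusted p = 1.65e-07) and 0.30 ± 0.13 for Exosc8 (adjusted p = 0.0453); the latter was called in 1 of 6 fits without a single gradient and not without the 3 libraries that deviated together (0.26, adjusted p = 0.0926).

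Exosc5 had the opposite shape. It rose from 221, 262 and 235 CPM in the WT monosome to 483, 383 and 448 CPM in the low polysome and stood at 345, 247 and 287 CPM in the high polysome. Exosc5, Exosc1 and Exosc7 were the 3 subunits whose WT low polysome libraries all lay above the monosome libraries, as for 26.0% of all genes tested. The high polysome over monosome ratio of Exosc5 was 0.28 ± 0.14 in WT (limma adjusted p = 0.0909), called without the 3 libraries that deviated together (0.33, adjusted p = 0.0277), and −0.18 ± 0.14 in KO (adjusted p = 0.248).

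Exosc4 was skewed to the high polysome in both genotypes, at 43.2, 41.0 and 30.5 CPM against 74.5, 53.3 and 64.1 CPM in WT and 32.5, 30.0 and 27.0 CPM against 40.3, 40.0 and 43.8 CPM in KO, with no overlap in either. Its log2 ratio was 0.76 ± 0.20 in WT (limma adjusted p = 0.00253) and 0.47 ± 0.19 in KO (adjusted p = 0.0326), where it was called in 2 of 6 fits without a single gradient and not without the 3 libraries that deviated together (0.38, adjusted p = 0.0539).

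Exosc10, the nuclear nuclease and the largest subunit with 2664 coding bases (887 residues), was flat in WT and tilted to the high polysome in KO cells. WT libraries held 55.1, 46.5 and 46.7 CPM in the monosome and 52.9, 41.0 and 50.1 CPM in the high polysome, a log2 ratio of −0.04 ± 0.19 (limma adjusted p = 0.881). KO libraries held 41.2, 36.4 and 33.1 CPM against 47.0, 63.0 and 65.4 CPM without overlap, a log2 ratio of 0.66 ± 0.18 (adjusted p = 0.00309).

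The second comparison asked whether the translation level itself differed between Ddx6 KO and WT cells. Exosc7 and Exosc1 fell, 7 subunits did not pass the test and none rose; over all genes 7.09% fell and 10.7% rose. At an unadjusted p under 0.05 there were 5 of the 9 subunits and 32.9% of all genes; edgeR called the same 2 and DESeq2 called Exosc5 besides them. The median KO effect over the 9 subunits was −0.29 on the log2 scale, against 0.02 over all genes tested. The split over all genes, 1357 higher and 901 lower, depended on the scaling: it was 1157 and 1112 with DESeq2 size factors and 936 and 1389 by library size alone, where the median of all genes moved to −0.10 and Exosc1 and Exosc7 stood at −0.67 and −0.66. By library size alone Exosc5 was called lower as well (−0.58, limma adjusted p = 0.0265).

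For Exosc7 the log2 ratios of the single gradients, from CPM plus 0.5, were 1.62, 1.72 and 1.68 in WT and 1.18, 1.23 and 1.03 in KO cells. For Exosc1 they were −0.29, −0.28 and −0.33 in WT and −0.72, −0.78 and −1.07 in KO cells. Every KO gradient lay below every WT gradient for both genes, for clone 1 and clone 2 alike. The exact two-sided permutation p was 0.1 for each, the smallest that 3 against 3 gradients can give. The fitted KO effect was −0.54 ± 0.17 for Exosc7 (limma adjusted p = 0.0357) and −0.55 ± 0.19 for Exosc1 (adjusted p = 0.0462).

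Both calls sat near the threshold. Without single gradients the KO effect of Exosc7 ran from −0.65 to −0.50 and lost its call without WT gradients 2 (adjusted p = 0.121) and 3 (0.0688) and without KO gradients 1 (0.0508), 2 (0.0682) and 3 (0.148). That of Exosc1 ran from −0.66 to −0.46 and lost its call without WT gradients 2 (adjusted p = 0.143) and 3 (0.0938) and without KO gradients 2 (0.0877) and 3 (0.22), by limma in each case.

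**Figure D2:**
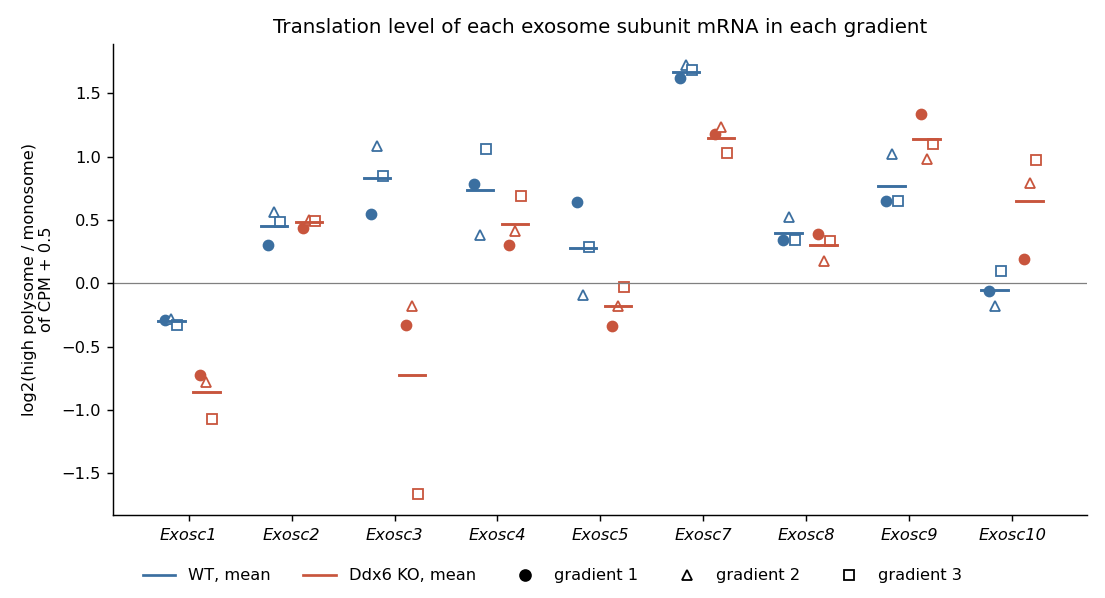
Log2 ratio of high polysome to monosome (CPM plus 0.5, vertical axis) of each subunit mRNA in each WT (blue) and Ddx6 KO (red) gradient; bars are means of 3 gradients. The KO gradients lie below all WT gradients for Exosc1, Exosc3 and Exosc7 and above them for Exosc10.

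KO and WT gradients were also separate for Exosc3 and Exosc10, in opposite directions. Exosc3 ran at 0.55, 1.08 and 0.85 in WT against −0.33, −0.18 and −1.66 in KO gradients, and Exosc10 at −0.06, −0.18 and 0.10 against 0.19, 0.79 and 0.97. Among all genes tested, 17.8% had all KO gradients below all WT gradients and 21.2% had them above; of the 9 subunits, 3 were below and 1 above. The fitted KO effects did not pass the test, at −1.61 ± 0.66 for Exosc3 (limma adjusted p = 0.0927) and 0.69 ± 0.26 for Exosc10 (adjusted p = 0.073). Without the 3 libraries that deviated together, Exosc3 passed it at −1.31 ± 0.29 (adjusted p = 0.0027), and so did Exosc5 at −0.58 ± 0.19 (adjusted p = 0.0332). Without KO gradient 1, the sole gradient of clone 1, Exosc10 passed it at 0.92 (adjusted p = 0.0293).

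The other ring subunits did not pass the test. The KO effect was −0.46 ± 0.20 for Exosc5 (limma adjusted p = 0.107), −0.29 ± 0.28 for Exosc4 (adjusted p = 0.492), −0.10 ± 0.19 for Exosc8 (adjusted p = 0.748) and 0.36 ± 0.19 for Exosc9 (adjusted p = 0.186). WT and KO gradients overlapped for all 4 genes.

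**Figure D3:**
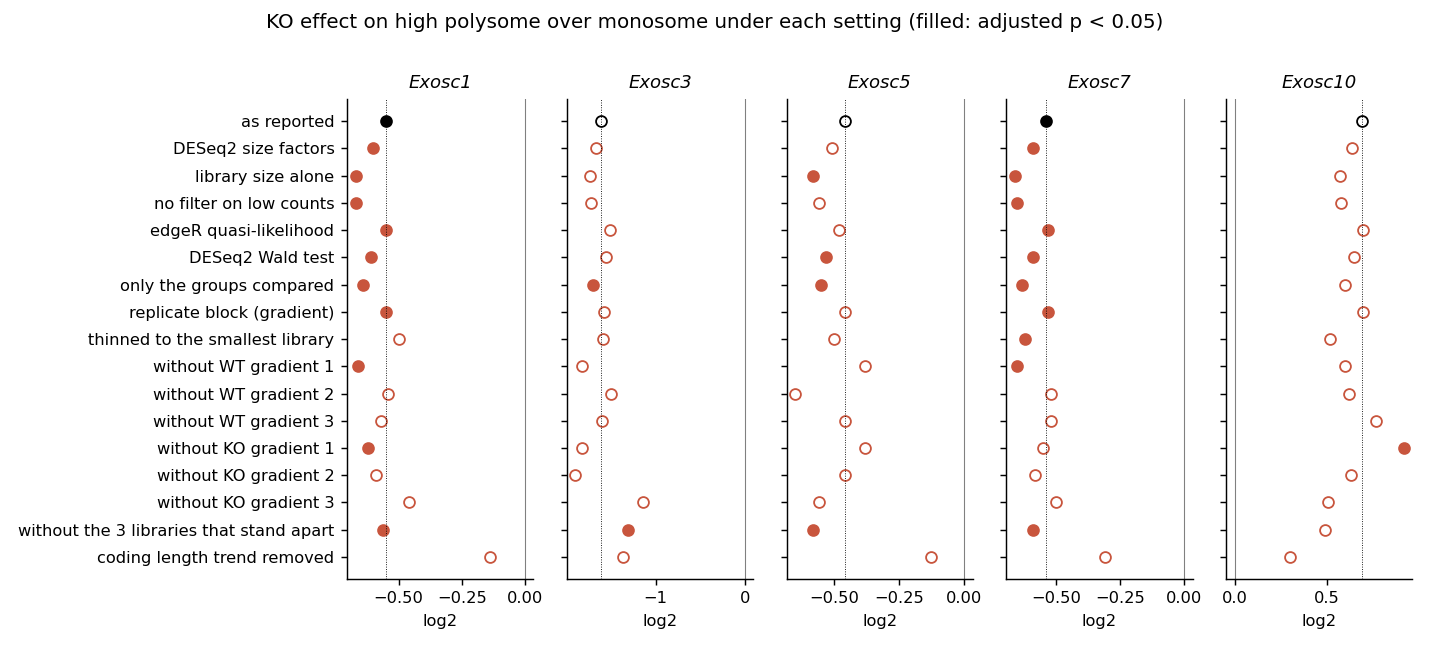
KO effect on the high polysome over monosome ratio (log2, horizontal axes) of Exosc1, Exosc3, Exosc5, Exosc7 and Exosc10 as reported (black) and under each other setting (red), filled where the adjusted p is below 0.05. The values stay on one side of 0 under all settings drawn, while the calls of Exosc1 and Exosc7 come and go.

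The exosome genes mostly have short coding sequences, and the KO effect ran with coding length over the transcriptome. Of the 9 tested subunits, 8 had fewer coding bases than the median of 1356 over 11773 tested coding genes, from 588 in Exosc1 to 1317 in Exosc9. Among coding genes of up to 700 bases the median KO effect was −0.50 and the quartiles were −0.80 and −0.16; Exosc1 lay at −0.55. Among the 1067 genes of over 700 and up to 900 bases the median was −0.30, with quartiles of −0.59 and 0.02.

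Of the 6 subunits of that length, Exosc7 (−0.54), Exosc5 (−0.46), Exosc4 (−0.29) and Exosc8 (−0.10) lay between these quartiles, Exosc2 (0.03) just above them and Exosc3 (−1.61) below. Exosc9 (0.36) lay above the upper quartile of its class, 0.26, and Exosc10 (0.69) between the quartiles of the class of over 2400 and up to 3000 bases, 0.03 and 0.83. With the trend on coding length taken out across genes, no subunit was called: Exosc1 stood at −0.14 (limma adjusted p = 0.698) and Exosc7 at −0.31 (adjusted p = 0.283). Across the 9 subunits, which share their libraries, Spearman's rho between coding length and KO effect was 0.767, and 0.667 over the 8 without Exosc10.

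**Figure D4:**
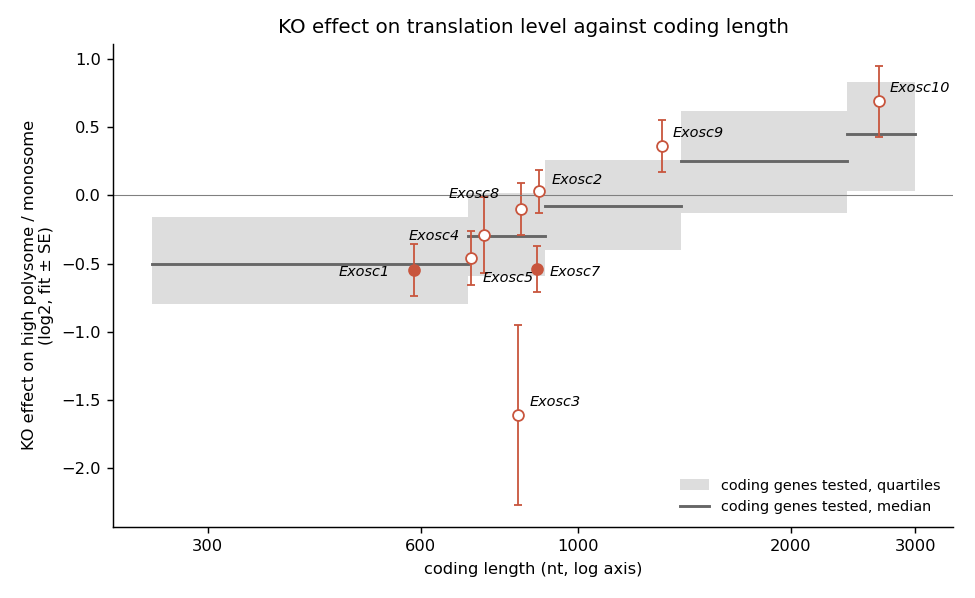
KO effect on the high polysome over monosome ratio (log2 fit, bars SE) against coding length (bases, log axis) for the 9 measured subunits, filled where adjusted p is below 0.05; grey blocks and lines are quartiles and medians of tested coding genes in length classes up to 3000 bases. Exosc1 lies near the median of its class (−0.55 against −0.50) and Exosc3 below its class.

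The low polysome over monosome ratio differed between genotypes for 1 subunit, Exosc9, which was higher in KO; 2.31% of all genes were higher and 2.39% lower. Its log2 ratios were −1.56, −1.25 and −1.28 in WT and −0.50, −0.65 and −0.28 in KO gradients, so that no KO gradient reached down to the WT values. The fitted KO effect was 0.91 ± 0.20 (limma adjusted p = 0.0182), with an exact two-sided permutation p of 0.1, the smallest 3 against 3 gradients can give. Without the 3 libraries that deviated together Exosc3 was called lower in KO by this ratio (−1.03 ± 0.30, adjusted p = 0.0298).

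The call of Exosc9 was lost without WT gradient 1 (0.76, limma adjusted p = 0.146), WT gradient 2 (0.96, adjusted p = 0.0679) or KO gradient 3 (0.77, adjusted p = 0.171). It was also lost in libraries thinned to the smallest (0.81, adjusted p = 0.0502) and with the coding length trend described above taken out (0.79, adjusted p = 0.058). It was held by edgeR and DESeq2. Exosc9 moved up in the low polysome and down in the monosome: KO libraries held 41.3, 53.9 and 49.1 CPM in the monosome, against 74.6, 65.7 and 68.7 in WT, and 29.2, 34.2 and 40.3 CPM in the low polysome, against 24.9, 27.3 and 27.9 in WT. The genotypes did not overlap in either fraction, though in the low polysome the KO gradients spanned more than the difference between the group means.

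The third comparison set Ddx6 KO against WT within each fraction. In the monosome 1 subunit fell and none rose, where 20.1% of all genes fell and 18.6% rose. In the low polysome 1 fell and 2 rose, where 24.3% fell and 23.4% rose. In the high polysome 5 of 9 fell and none rose, where 21.1% of all genes fell and 25.3% rose. The subunit median there was −0.43, against −0.01 over all genes. Differences within a fraction were not set against coding length, which ran with the KO effect above, so its part in them was not tested. Since a lower share of a fraction can come from less mRNA or from fewer ribosomes on it, and no unfractionated RNA was used here, these cannot be told apart.

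Exosc1 had the largest drop in the high polysome. KO libraries held 33.7, 35.2 and 28.4 CPM against 49.6, 62.6 and 60.1 CPM in WT, a log2 difference of −0.83 ± 0.13 or a fold of 0.564 (limma adjusted p = 3.56e-05). In the low polysome it stood at 55.1, 47.2 and 48.7 CPM in KO against 86.9, 85.0 and 78.6 CPM in WT, −0.73 ± 0.13 (adjusted p = 8.25e-05). The genotypes did not overlap in either fraction, both calls held without each gradient in turn, and the monosome difference was −0.28 ± 0.13 (adjusted p = 0.109).

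The ring genes Exosc4, Exosc5, Exosc8 and Exosc7 made up the rest of the drop in the high polysome. Exosc4 differed by −0.61 ± 0.18 on the log2 scale (limma adjusted p = 0.00785), Exosc5 by −0.49 ± 0.14 (adjusted p = 0.00646), Exosc8 by −0.43 ± 0.13 (adjusted p = 0.00937) and Exosc7 by −0.29 ± 0.11 (adjusted p = 0.0371). KO libraries lay below all WT libraries for Exosc4 (40.0 to 43.8 against 53.3 to 74.5 CPM), for Exosc5 (199 to 211 against 247 to 345 CPM) and for Exosc8 (134 to 141 against 168 to 213 CPM). For Exosc7 the highest KO library, 157 CPM, just reached the lowest WT library, 156 CPM, and its call held in 3 of 6 fits without a single gradient, against 6 of 6 for Exosc4 and Exosc5 and 5 of 6 for Exosc8.

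Exosc2 was the subunit that rose in the low polysome besides Exosc9. Its libraries held 53.9, 48.6 and 53.6 CPM in KO against 42.4, 36.7 and 35.0 CPM in WT without overlap, a log2 difference of 0.46 ± 0.12 (limma adjusted p = 0.00365) that held without each gradient in turn. Exosc9 rose by 0.37 ± 0.15 there (adjusted p = 0.0426), called in 1 of 6 fits without a single gradient and not without the 3 libraries that deviated together (0.43, adjusted p = 0.0754), and fell by 0.53 in the monosome (SE 0.14, adjusted p = 0.00502), called in all 6. In the monosome Exosc3 stood higher in KO without overlap, at 0.86 ± 0.51 (adjusted p = 0.188), and passed the test without the 3 libraries that deviated together (0.88 ± 0.22, adjusted p = 0.00181). Without those libraries Exosc8 was also called lower in the monosome (−0.31, adjusted p = 0.0481) and Exosc10 in the low polysome (−0.52, adjusted p = 0.0276), against −0.33 (adjusted p = 0.0551) and −0.43 (adjusted p = 0.058) with them.

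**Figure D5:**
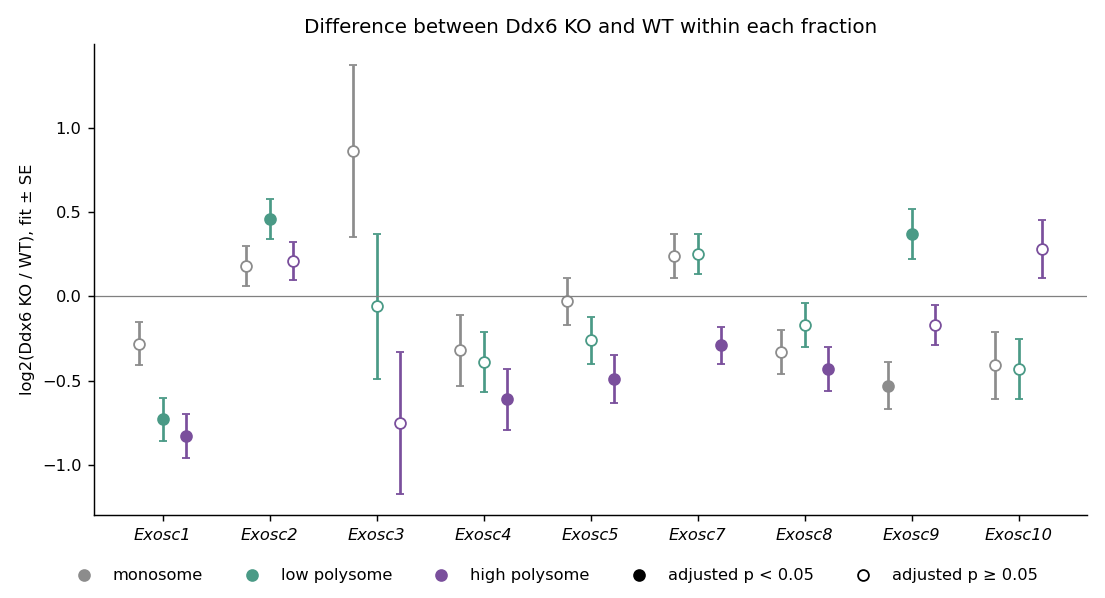
Log2 difference between Ddx6 KO and WT (fit, bars SE, vertical axis) of each subunit mRNA, with the monosome in grey, the low polysome in green and the high polysome in purple, filled where adjusted p is below 0.05. In the high polysome Exosc1, Exosc4, Exosc5, Exosc7 and Exosc8 are lower by 0.29 to 0.83, and Exosc2 and Exosc9 are higher in the low polysome.

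Exosc4 and Exosc1 were the 2 subunit genes whose annotated 3′ UTR held a seed match of ESC-enriched microRNAs from the miR-290 and miR-302 clusters. Such a match is of interest here because DDX6 acts with the microRNA machinery. Only cluster members with the seed of miR-294-3p were taken. It is AAGUGCU at bases 2 to 8, in capitals in the mature sequences (RefSeq, GRCm38.p6). Their matching site is AGCACTT, searched on the transcript strand, or AGCACTTA with the A opposite base 1, which contains it. The mature sequences of one member of each cluster are shown, miR-294-3p (chr7:3220691-3220712) and miR-302d-3p (chr3:127545665-127545687), both on the plus strand.
mmu-miR-294-3p: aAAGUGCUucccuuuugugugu
mmu-miR-302d-3p: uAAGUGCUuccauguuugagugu

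The 3 sites are printed with the match in capitals (Gencode transcripts, GRCm38). Positions are those of the whole printed stretch, with the bases on each side of the match. Exosc4 held a match of 8 bases and one of 7 bases near the start of its 962-base 3′ UTR, within chr15:76329766-76329795 and chr15:76329828-76329856 (plus strand). Exosc1 held 1 of 7 bases in its 416-base 3′ UTR, within chr19:41923939-41923967 (minus strand).
Exosc4 site 1: ccttactgtacAGCACTTAaaagctgctca
Exosc4 site 2: taagtggagagAGCACTTgtgctaggaag
Exosc1 site: aagaggacttcAGCACTTcagctacttct

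The 3′ UTRs of 15.6% of 11632 tested coding genes held AGCACTT and 3.13% held AGCACTTA. Of the 10 exosome genes, 2 held the former and 1 the latter. Both genes with a site were lower in the KO high polysome, by 0.61 (Exosc4) and 0.83 (Exosc1) on the log2 scale as given above, and Exosc5, Exosc7 and Exosc8, which were lower there too, held none. The study reported another measure, a higher translation level in Ddx6 KO cells for predicted targets of these microRNAs as a group. On that measure neither gene rose: the KO effect was −0.29 for Exosc4 (limma adjusted p = 0.492) and −0.55 for Exosc1 (adjusted p = 0.0462). The part of the sites in either value was not tested. A match is a description of the sequence, and microRNA binding was not measured.

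Over the 18 libraries the subunits did not share 1 profile. Of the 36 pairs among the 9 genes, 7 had a Pearson r over 0.5 between log2 CPM and 14 were negative, with a median of 0.123. The highest were Exosc8 with Exosc9 (r = 0.908) and Exosc2 with Exosc9 (r = 0.877), the genes with a low polysome dip, and the lowest was Exosc2 with Exosc5 (r = −0.77). The mean profile of the 9 genes correlated most with Exosc7 (r = 0.794) and Exosc4 (r = 0.775) and least with Exosc1 (r = −0.141). Each of the 9 genes is part of that mean, so these values include the gene itself and are not like those of non-members. The non-member genes closest to that mean profile were Parvb (r = 0.974), Aurka (r = 0.967) and Smtnl2 (r = 0.948). All of these are descriptions over 18 libraries that share fractions and genotypes.

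Of the 16 nucleases and cofactors that work with the exosome, all tested, 1 rose and 2 fell in the KO effect on the high polysome over monosome ratio, where 10.7% of all genes rose and 7.09% fell, with a median of −0.01. C1d, a nuclear cofactor of EXOSC10, fell by 1.20 on the log2 scale (SE 0.26, limma adjusted p = 0.00389) and Mphosph6, another exosome-bound nuclear protein, by 0.68 (SE 0.18, adjusted p = 0.0136). Zcchc7, a subunit of the nuclear TRAMP-like complex, rose by 1.11 ± 0.32 (adjusted p = 0.0223). It was lower in the KO monosome (−0.82, limma adjusted p = 0.0139) and low polysome (−0.80, adjusted p = 0.00129). In the high polysome its difference, 0.30, was not called (adjusted p = 0.237). The coding sequences of C1d and Mphosph6 have 426 and 486 bases, and with the trend on coding length taken out neither was called (−0.69, adjusted p = 0.114, and −0.21, adjusted p = 0.523). Nor was Zcchc7 (0.95, adjusted p = 0.0868), whose call was also lost by library size alone (adjusted p = 0.0511) and without WT gradients 1 (0.82, adjusted p = 0.0756) and 2 (1.28, adjusted p = 0.0508) and KO gradients 1 (0.98, adjusted p = 0.0634) and 3 (1.09, adjusted p = 0.0928). The call of Mphosph6 was lost without WT gradient 2 (−0.69, adjusted p = 0.0605).

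The catalytic partners Dis3 and Dis3l had no KO effect past the test, at −0.09 ± 0.22 (limma adjusted p = 0.81) and 0.25 ± 0.29 (adjusted p = 0.573). Dis3 was lower in KO cells in every fraction, by 0.80 (monosome), 0.64 (low polysome) and 0.89 (high polysome) on the log2 scale (adjusted p = 0.000302, 0.00233 and 0.000127). Mtrex was called lower in every fraction too, at −0.97, −1.14 and −0.58 in that order. Of the 16 nucleases and cofactors, 4, 5 and 6 were lower and 1, 1 and 2 higher in that order. Over all genes 20.1%, 24.3% and 21.1% were lower and 18.6%, 23.4% and 25.3% higher. For Dis3, the high polysome over monosome ratio was as follows. The translation level of Dis3 in WT was below 0, at −1.0 ± 0.15 (limma adjusted p = 8.14e-06).

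Among the genes of other decay routes, the nuclear 5′-to-3′ exonuclease Xrn2 rose in translation level by 0.88 ± 0.18 (limma adjusted p = 0.00317), which fell to 0.46 (adjusted p = 0.134) with the trend on coding length taken out, and the cytoplasmic Xrn1 stood at 0.51 ± 0.31 (adjusted p = 0.254). Within fractions Xrn2 was lower in the KO monosome (−0.66, limma adjusted p = 0.00047) and low polysome (−0.39, adjusted p = 0.0149). Its difference in the high polysome, 0.21, was not called (adjusted p = 0.165). Of the 8 LSM genes, whose proteins form the rings that bind the ends of decaying mRNA and of U6 RNA, 2 fell and none rose (7.09% and 10.7% of all genes), between −1.10 for Lsm8 and 0.22 for Lsm7, with a median of −0.49, close to the −0.50 of coding genes of up to 700 bases, the length class of all 8. Of the 11 CCR4-NOT genes, the deadenylase complex, 2 rose and none fell (against the same 10.7% and 7.09%), between −0.69 for Cnot7 and 0.81 for Cnot6, with a median of 0.28. The exosome median of −0.29 lay between these, and the differences between the lists were not tested.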

How the data were processed

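Gene counts of 18 libraries were deposited by the authors as one table of raw counts per gene; per the submitters' processing notes and the study's methods, QuantSeq 3′ FWD reads were trimmed with cutadapt 1.14, aligned to mm10 with STAR 2.5.3a, and unique alignments were counted on the sense strand with featureCounts 1.5.3. The table's 92 spike-in sequences (at most 0.00217% of the gene counts of a library) entered neither library sizes nor tests. Gene models, coding lengths and 3′ UTRs came from the Gencode annotation of the same assembly, to which 51274 of 51467 gene IDs matched without their version.

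Genes with at least 3 CPM in at least 3 libraries were fitted with limma 3.58.1 (voom, TMM factors of edgeR 4.0.16) on 6 group means, in R 4.3.3; p-values were adjusted by Benjamini-Hochberg over 12705 genes and read at 0.05. The fit was tested on simulated data. Single genes were also compared per gradient, by an exact permutation test of log2 ratios of CPM plus 0.5 (SciPy). Alternatives were DESeq2 1.42.0 size factors and test, library size alone, no low-count filter, edgeR's quasi-likelihood test, fewer groups, a gradient block, thinned libraries, a coding length trend, single gradients left out and another pseudocount; a fit without the 3 libraries that deviated together was chosen after seeing the data. The text names the 10 subunits, Ddx6, Dis3, Dis3l, Xrn1, Xrn2, cofactors with a called KO effect, Mtrex for its levels within fractions, the extremes of the LSM and CCR4-NOT lists, and the 3 genes most like the mean subunit profile. The members and lists were chosen with earlier results of these data known.

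Fractions with one number came from one gradient per the labels, so they are paired within a genotype; their deviations from group means correlated between −0.181 and 0.485. Numbers do not pair WT with KO gradients.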

Additional observations from a re-analysis of the deposited data

Results flagged for a closer look

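The change from monosome to high polysome was compared between Ddx6 KO and WT cells by the interaction term of the limma fit. Among the subunits, their nucleases and cofactors, Xrn1 and Xrn2, it was called for 2 subunits and 4 other genes. These were Exosc1 (−0.55 on the log2 scale), Exosc7 (−0.54), C1d (−1.20), Mphosph6 (−0.68), Xrn2 (0.88) and Zcchc7 (1.11). Over all genes tested, 10.7% were higher and 7.09% lower by this term, and the LSM and CCR4-NOT genes called are counted above. Within the same lists, the change from monosome to low polysome differed for Exosc9 (0.91), where 2.31% of all genes were higher and 2.39% lower. The adjusted p-values, and the gradients without which the calls of the subunits were lost, stand beside these genes above.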

How the results depend on the processing

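Exosc3 had the lowest count of the 9 tested subunits, 51 in its lowest library, and the part of depth in its scatter was not tested. Of the values of the 9 subunits under alternatives, 116 of 144 kept their direction and their side of the threshold for the KO effect on the high polysome over monosome ratio, 122 of 135 for KO against WT in the monosome, 117 of 135 in the low polysome and 129 of 135 in the high polysome; 106 of 135 and 115 of 135 did for the ratio itself in WT and in KO. Fits without a gradient or on fewer groups have fewer samples, and the causes of the moves below, in either direction, were not tested.

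Counts of subunits moved as follows. The single subunit lower in the WT ratio became 0 with DESeq2 size factors, library size alone, no filter on low counts, edgeR, the DESeq2 test, only the groups compared, thinned libraries and without the 3 libraries that deviated together, and 0 to 1 without single gradients. The 5 higher in the WT ratio ranged from 4 to 7 over all alternatives and the 6 higher in KO from 4 to 6. In KO, 2 rather than 1 were lower with only the groups compared. For the KO effect on the high polysome over monosome ratio, the 2 lower became 4 with only the groups compared and 4 without the 3 libraries, 1 in thinned libraries, 0 with the coding length trend removed and 0 to 2 without single gradients, where 0 to 1 were higher. Exosc5 was called lower besides the 2 by library size alone and by the DESeq2 test. For the low polysome over monosome ratio, the 1 higher became 0 in thinned libraries, 0 with the coding length trend removed and 0 to 1 without single gradients, and 1 was lower without the 3 libraries. In the monosome the 1 lower became 2 with DESeq2 size factors, the DESeq2 test, thinned libraries and without the 3 libraries, 3 with only the groups compared and 1 to 2 without single gradients, and 1 was higher with only the groups compared and without the 3 libraries. In the low polysome the 2 higher became 1 with DESeq2 size factors, library size alone, no filter, only the groups compared, thinned libraries and without the 3 libraries, and 1 to 2 without single gradients; the 1 lower became 2 without the 3 libraries and 1 to 3 without single gradients. In the high polysome 3 to 5 were lower without single gradients.

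Signs turned for values that were never called. The Exosc10 ratio in WT (−0.04) became 0.09 without the filter, 0.00 with only the groups compared, 0.02 without the 3 libraries and −0.11 to 0.04 without single gradients. The KO effect on Exosc2 (0.03) became −0.03 with DESeq2 size factors and the DESeq2 test, −0.10 with library size alone, −0.09 without the filter, −0.07 with only the groups compared and without the 3 libraries, and −0.14 to 0.08 without single gradients; with the coding length trend removed Exosc8 stood at 0.15, Exosc4 at 0.03, Dis3l at −0.20 and Xrn1 at −0.09, and Dis3 (−0.09) ran from −0.31 to 0.04 without single gradients. In the monosome Exosc5 (−0.03) became 0.04 with library size alone and 0.06 without the filter, and −0.12 to 0.04 without single gradients; in the low polysome Exosc3 (−0.06) ran from −0.66 to 0.45 without single gradients. By library size alone the mean difference of the gradient ratios moved beyond 1 SD for Exosc7 (−0.53 to −0.65) and Exosc8 (−0.10 to −0.22).

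With the replicate block (fractions of a gradient paired), no subunit's call changed, and the KO effects on the high polysome over monosome ratio were −0.53 for Exosc7 (adjusted p = 0.0255) and −0.55 for Exosc1 (adjusted p = 0.0417), by limma.

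Over all genes the KO effect on the high polysome over monosome ratio, 1357 higher and 901 lower, moved by over 1.5 times to 1389 lower by library size alone, 1375 by the DESeq2 test, 1744 with only the groups compared and 1545 without the 3 libraries, to 436 higher and 268 lower with the length trend removed, and without single gradients to as few as 466 and 276 (KO gradient 3). For the low polysome over monosome ratio, 294 higher and 304 lower became 553 and 534 by the DESeq2 test, 162 and 125 with only the groups compared, 111 and 21 with the length trend removed, 494 lower by library size alone, 724 lower without the 3 libraries, and as few as 9 and 5 without WT gradient 1. With no filter 10866 rather than 4087 genes were lower in the WT ratio and 3929 rather than 2548 in the KO monosome.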
